A study of Rattus norvegicus with 24 samples.

Results

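The circadian clock genes described here are 7 genes of the rat: Bmal1, Per2, Nr1d2, Dbp, Tef, Bhlhe40 and Bhlhe41. They were taken by name, as every probe set that carries 1 of these symbols in the platform annotation. This gave 9 of the 8740 probe sets that are not controls, with a pair of probe sets each for Bmal1 and Dbp. All 9 were among the 5741 probe sets bright enough to be tested. RNA was measured in the extraocular muscles (EOM), which move the eye, and in the extensor digitorum longus (EDL), a fast hindlimb muscle, of Rattus norvegicus at 6, 18 and 30 months of age. There were 6 groups of 4 Affymetrix Rat Genome U34 arrays, 24 in all, with the RNA of 4 animals pooled for each. The animals carried no treatment that the labels name, and strain, sex and the time of day at which tissue was taken are not given in the sources used here. Nor is it given whether EDL and EOM were taken from the same animals. Levels are array signals in arbitrary units and serve to compare a probe set with itself across arrays, not 1 gene with another.

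The mammalian clock is a feedback loop of transcription that runs in nearly every cell, muscle fibres included. BMAL1, in a pair with CLOCK, binds E-boxes and switches on the Per and Cry genes, whose proteins then hold BMAL1 and CLOCK back. NR1D2, a nuclear receptor also called REV-ERB beta, represses Bmal1 through an element called RORE, and DBP and TEF activate genes through an element called the D-box. BHLHE40 and BHLHE41 bind E-boxes and repress there. In most tissues Bmal1 RNA is high at the time of day when Dbp, Per and Nr1d RNAs are low, and the other way round, so a muscle collected at 1 time shows 1 phase of that cycle.

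Elements through which clock proteins are known to act were searched for in the members' own promoters. The matches are printed as background, since several members encode proteins that act through such elements. In the RefSeq promoters of assembly GRCr8, from 250 bases before to 50 bases after the start site, all 7 members had an entry. The letters searched on both strands were CACGTG (E-box), CACGTT (a weaker E-box), TTATGTAA (D-box) and TAGGTNA (RORE, whose letters were settled after the promoters were seen). Each line below is read 5′ to 3′ on the gene's own strand, with the match in capitals and 8 bases on either side.
Bmal1, RORE at chr1:176766268-176766290, plus strand: tcggaaagTAGGTTAgtggtgcg
Bmal1, RORE at chr1:176766304-176766326, plus strand: gcagaaagTAGGTCAgggacgga
Per2, weaker E-box at chr9:99497042-99497063, minus strand: cgcgcggtCACGTTttccacta
Per2, D-box at chr9:99497170-99497193, minus strand: tgtgcgtcTTATGTAAagagagcg
Tef, E-box at chr7:115206621-115206642, plus strand: tggcccagCACGTGtctacatc
Bhlhe40, E-box at chr4:143174222-143174243, plus strand: ttgtccaaCACGTGagactcat
Bhlhe41, E-box at chr4:180569390-180569411, minus strand: acgttccgCACGTGagctgggt
Among the 7 windows Bmal1 alone held RORE letters, at 2 places, and Per2 alone held the D-box. The windows of Dbp and Nr1d2 held none of the 4 motifs. Of all 33469 promoters of this length, 6.42% held CACGTG, 4.83% CACGTT, 0.893% TTATGTAA and 8.70% TAGGTNA. These are matches of letters, not binding sites, and the arrays did not measure binding.

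Some facts of the arrays come before the values. After each group's mean was removed, the leading component of all tested probe sets, with 25.2% of the variance, had replicates 1 and 2 of all 6 groups on one side and replicates 3 and 4 on the other (12 of 12 and 12 of 12 arrays). The labels give no reason for this split, so results that rest on it are given for each set of replicates. Of the 5741 probe sets, 28.1% were called between these replicate sets in a fit of group by set. The labelled muscles matched their markers. All 6 skeletal fibre markers on the array, of 7 listed, lay above the array median on every array, and 4 of 4 extraocular fibre markers were higher in EOM than in EDL. In these bulk samples fewer cells of a type and less RNA per cell cannot be told apart.

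Bmal1 encodes one member of the clock's activating pair, and both of its probe sets had their highest group mean at 6 months and their lowest at 18 months in each muscle. On the brighter probe set (AB012600_s_at) the signal in EDL was 583.3, 488.1, 292.3 and 536.2 at 6 months, 78.7, 319.5, 184 and 304.8 at 18 months, and 274.5, 179.2, 262.6 and 321.3 at 30 months. The 6-month signal in EOM was 348, 540.6, 245.9 and 404.6, the 18-month signal 259.7, 30.7, 171.2 and 207.9, and the 30-month signal 271.1, 123.6, 242.7 and 373.5. The 18-month arrays overlapped the 6-month arrays in both muscles, and 1 very dim array in each (78.7 and 30.7) pulled the 18-month means down. The log2 difference at 18 against 6 months was -1.25 ± 0.51 (SE) in EDL and -1.51 ± 0.51 in EOM, with limma adjusted p = 0.493 and 0.627.

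The second Bmal1 probe set (AF015953_at) was less scattered. Its signal in EDL was 223.1, 266.2, 193 and 217.6 at 6 months, 104.4, 92.8, 109.5 and 176.7 at 18 months, and 138.5, 144.7, 197.1 and 158 at 30 months. The EOM arrays gave 129.8, 362.9, 133.9 and 162.8 at 6 months, 99.4, 33.9, 68.1 and 77.7 at 18 months, and 110.7, 99.2, 133.2 and 104.4 at 30 months. Every 18-month array lay below every 6-month array of the same muscle. The log2 difference at 18 against 6 months was -0.93 ± 0.33 in EDL (limma adjusted p = 0.389) and -1.46 ± 0.33 in EOM (limma adjusted p = 0.0716, the 13th lowest p of all probe sets), so neither was called. Over the 24 arrays the log2 values of the pair of probe sets correlated at r = 0.80.

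Dbp encodes a transcription factor with a PAR bZIP domain and is among the RNAs with the widest daily swing in many tissues. Here it stood opposite to Bmal1. On the brighter probe set (J03179_g_at) the EDL signal was 422.4, 307.1, 513 and 376.8 at 6 months, 2252.3, 1287.3, 1084.3 and 832.1 at 18 months, and 1211.9, 1917.8, 585.7 and 624.8 at 30 months. All 8 older EDL arrays were above all 4 arrays of 6 months. In EOM the signal was 442.6, 293.9, 642.6 and 353.8 at 6 months, 759.7, 1377.1, 676.8 and 804.7 at 18 months, and 813, 1099.7, 432.6 and 301.9 at 30 months. There the 18-month arrays lay above the 6-month arrays without overlap, while the 30-month arrays overlapped them. The log2 difference at 18 against 6 months was 1.68 ± 0.40 in EDL (limma adjusted p = 0.0771) and 1.07 ± 0.40 in EOM (limma adjusted p = 0.769). At 30 against 6 months it was 1.27 ± 0.40 in EDL (limma adjusted p = 0.127) and 0.50 ± 0.40 in EOM (limma adjusted p = 1). The dimmer probe set (J03179_at) gave 1.93 ± 0.49 and 1.07 ± 0.49 at 18 months, also not called.

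**Figure D1:**
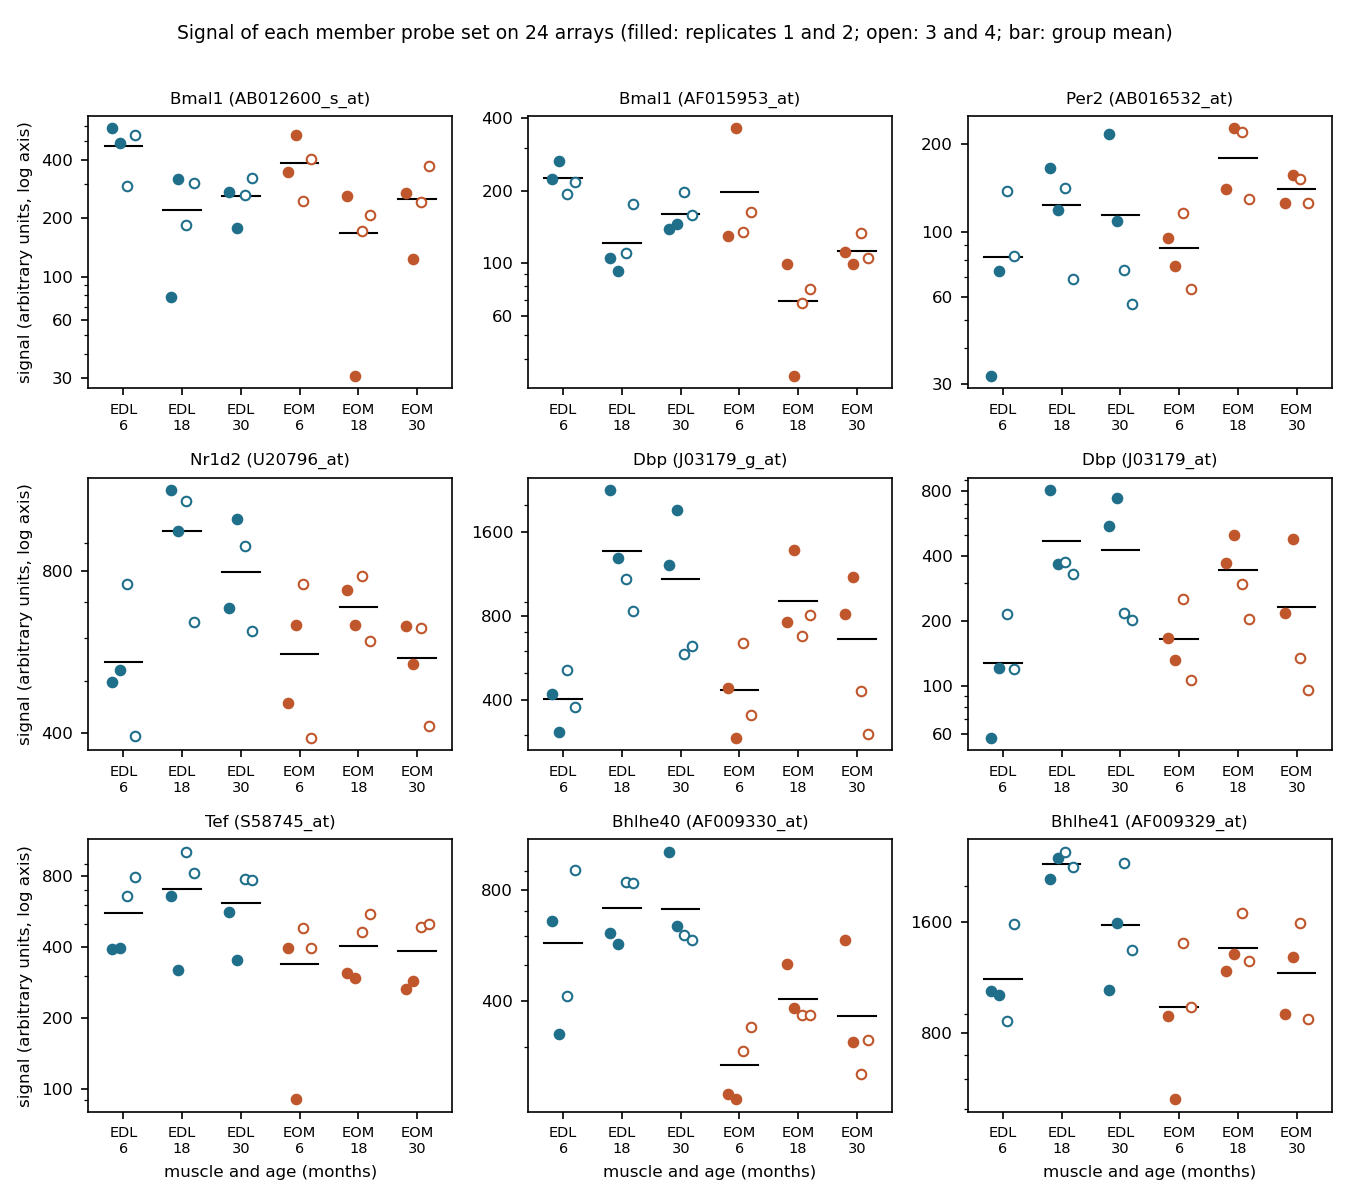
Signal of the 9 probe sets of the 7 clock genes (arbitrary units, log axis) on each of 24 arrays, by muscle and age in months. Filled points are replicates 1 and 2, open points replicates 3 and 4, and bars are group means over 4 arrays. Within each muscle Bmal1 has its lowest group mean at 18 months, where the 6 other genes have their highest. In each group the mean of Tef is lower over replicates 1 and 2 than over replicates 3 and 4.

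Tef belongs to the same PAR bZIP family as Dbp and had its group means in the same order of ages, with smaller differences. The age changes of Tef and Dbp were not tested against each other. The EDL signal of Tef was 393.5, 394.8, 655.8 and 788.8 at 6 months, 656.6, 319.1, 1012.8 and 820.8 at 18 months, and 563.3, 352.7, 774.1 and 772.5 at 30 months. The EOM arrays gave 395.9, 90.3, 480.2 and 394.3 at 6 months, 310.8, 294.4, 463.7 and 552.4 at 18 months, and 264.8, 286.4, 485.3 and 498.2 at 30 months. The ages overlapped in both muscles, and the largest age difference from 6 months was 0.45 ± 0.43 on the log2 scale, in EOM at 18 months (limma adjusted p = 0.999). What set Tef arrays apart was the replicate number. The mean of replicates 1 and 2 was below that of replicates 3 and 4 in 6 of 6 groups, by -0.74 to -1.20 on the log2 scale, and over all groups by -0.91 ± 0.19 (limma adjusted p = 0.0024). Dbp went the other way, 0.56 ± 0.15 higher in replicates 1 and 2 (limma adjusted p = 0.0127), through its 18- and 30-month arrays.

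Per2, which encodes a repressing partner of the loop, was dim, with 11 of its 24 values at or below the median of their arrays. In EDL it read 32.1, 73.5, 138.3 and 82.9 at 6 months, 165.5, 118.6, 141.6 and 68.8 at 18 months, and 216.5, 109.1, 74.1 and 56.7 at 30 months, with wide overlap. In EOM it read 95.2, 76.3, 116.1 and 63.8 at 6 months, 139.7, 226.1, 218.9 and 129.2 at 18 months, and 125.7, 157, 151.8 and 126 at 30 months. All 8 older EOM arrays were above all 4 arrays of 6 months. The log2 difference in EOM was 1.01 ± 0.41 at 18 months and 0.70 ± 0.41 at 30 months, with limma adjusted p = 0.957 and 1, and the ratio of mean signals was 2.03 and 1.60 (178.5 and 140.1 over 87.85).

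Nr1d2, the receptor that represses Bmal1, read 496.6, 522.6, 755.1 and 395.6 in EDL at 6 months, 1127.1, 946.4, 1074.6 and 642.2 at 18 months, and 681.9, 996.8, 888.4 and 618.9 at 30 months. In EOM it read 454.5, 634.1, 756.2 and 392.4, then 736.1, 633.1, 780.8 and 591.1, then 631.5, 537.5, 625.2 and 412.9. In EDL 3 of 4 arrays of 18 months were above all 6-month arrays, whereas in EOM the ages overlapped throughout. The log2 difference at 18 against 6 months was 0.81 ± 0.24 in EDL (limma adjusted p = 0.22) and 0.33 ± 0.24 in EOM (limma adjusted p = 0.999).

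Bhlhe41 and Bhlhe40 are E-box repressors also known as DEC2 and DEC1. Bhlhe41 in EDL read 1041.5, 1014.9, 863.6 and 1572.9 at 6 months, 2086.7, 2383.7, 2471 and 2242.7 at 18 months, and 1046.6, 1590.1, 2304.2 and 1343.4 at 30 months. The 4 arrays of 18 months were tightly grouped (2296 ± 168, SD, n = 4) and lay above every 6-month array (1123 ± 310). In EOM Bhlhe41 read 889.4, 529.9, 1400.6 and 943.6, then 1176.7, 1309.8, 1685 and 1249.9, then 903.6, 1281.7, 1584.4 and 871.3 at the 3 ages, with overlap between neighbouring ages. The log2 difference at 18 against 6 months was 1.07 ± 0.26 in EDL (limma adjusted p = 0.0941) and 0.60 ± 0.26 in EOM (limma adjusted p = 0.999). Without EDL replicate 4 of 6 months, the brightest array of that group, the EDL difference was called at 1.24 (limma adjusted p = 0.0204). This was 1 of 24 omissions of a single array. In the others the difference was not called, with log2 down to 0.95 and limma adjusted p up to 0.254.

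Bhlhe40 in EDL read 657.8, 326.3, 412.6 and 904.5 at 6 months, 609.7, 571, 837 and 832.1 at 18 months, and 1013, 637.5, 603.9 and 586 at 30 months. In EOM it read 224.1, 217.1, 293.1 and 340.5 at 6 months, 503.4, 383.5, 367.6 and 367.5 at 18 months, and 584.5, 309.5, 253.5 and 313.6 at 30 months. The EOM arrays of 18 months lay above those of 6 months without overlap, though the nearest pair was 367.5 and 340.5, and the log2 difference was 0.61 ± 0.29 (limma adjusted p = 0.999). In EDL the ages overlapped.

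The first question of the design is how each muscle differs between ages. For a single muscle the answer for these genes was that no member passed the test: 0 of 7 genes were called in any of the 6 comparisons of 2 ages by limma with Benjamini-Hochberg adjustment over 5741 probe sets. The background was low as well. Of all probe sets, 0.279% were called in EDL at 18 against 6 months and 1.86% at 30 against 6 months, and in EOM 0.174% and 0.0348%. For 30 against 18 months the shares were 1.55% in EDL and 0.0174% in EOM. With the replicate set as a term of the fit, an alternative added after the data had been seen, 2 of 7 were called in EDL at 18 against 6 months, Dbp (1.68, limma adjusted p = 0.0246) and Bhlhe41 (1.07, limma adjusted p = 0.0426). At an unadjusted p under 0.05, 4 of 7 genes were past in EDL at 18 months and 5 of 7 in EOM, where 7.66% and 3.97% of all probe sets were. At 30 against 6 months 2 of 7 and 0 of 7 were past, beside 10.5% and 2.30%, and at 30 against 18 months 1 of 7 (Bhlhe41) and 0 of 7, beside 9.34% and 2.37%. The members and comparisons were chosen with earlier results of these data known. Member counts and medians set beside those of all probe sets, here and below, therefore describe the list and do not test it.

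In both muscles Bmal1 was lower and the 6 other genes were higher at 18 than at 6 months. The same signs held at 30 against 6 months, a comparison that shares its 6-month arrays. For Nr1d2 in EOM that difference was only 0.01 ± 0.24 on the log2 scale, and its mean signal was slightly lower at 30 months (551.8 against 559.3). Within replicates 3 and 4 alone the signs at 30 against 6 months did not all hold: Per2 (-0.72) and Bhlhe40 (-0.04) were lower in EDL, and Dbp (-0.40), Nr1d2 (-0.10) and Bhlhe40 (-0.16) in EOM, none of them called (limma adjusted p = 1). At 18 against 6 months Per2 in EDL was also lower within replicates 3 and 4 (-0.12, limma adjusted p = 0.995). Within replicates 1 and 2 it was higher (1.53). The median over the 7 genes was 0.71 in EDL and 0.60 in EOM at 18 months on the log2 scale, where the median over all probe sets was 0.05 in each. At 30 months it was 0.46 and 0.36, against 0.03 and 0.01 over all probe sets. From 18 to 30 months the signs were turned, with Bmal1 higher and the 6 others lower in each muscle, a comparison that shares the 18-month arrays. For Bhlhe40 in EDL that difference was only -0.02 ± 0.29. Arrays of 18 and 6 months did not overlap for 2 of 7 genes in EDL (Dbp and Bhlhe41) and 3 of 7 in EOM (Per2, Dbp and Bhlhe40), where 2.60% and 4.04% of all probe sets did not. At 30 against 6 months 1 of 7 did not overlap in each muscle (Dbp in EDL and Per2 in EOM), beside 3.99% and 2.39%. A rule after the submitters' own, in which every pairwise comparison has 1 direction and the mean signals differ by more than 2-fold, was met in EDL at 18 months by Dbp (3.37-fold) and Bhlhe41 (2.04-fold), in EOM by Dbp (2.09-fold) and Per2 (2.03-fold), and at 30 months by Dbp in EDL (2.68-fold). It was met by 0.906%, 1.10% and 1.86% of all probe sets in these comparisons, and at 30 months in EOM by 0 of 7 genes and 0.453% of all probe sets. These counts by gene take the brightest probe set of each. Bmal1 on AF015953_at also met the rule in EOM at 18 months (2.83-fold lower), and Dbp on J03179_at in EDL at 18 months (3.68-fold). On AF015953_at the Bmal1 arrays of 18 and 6 months did not overlap in either muscle.

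**Figure D2:**
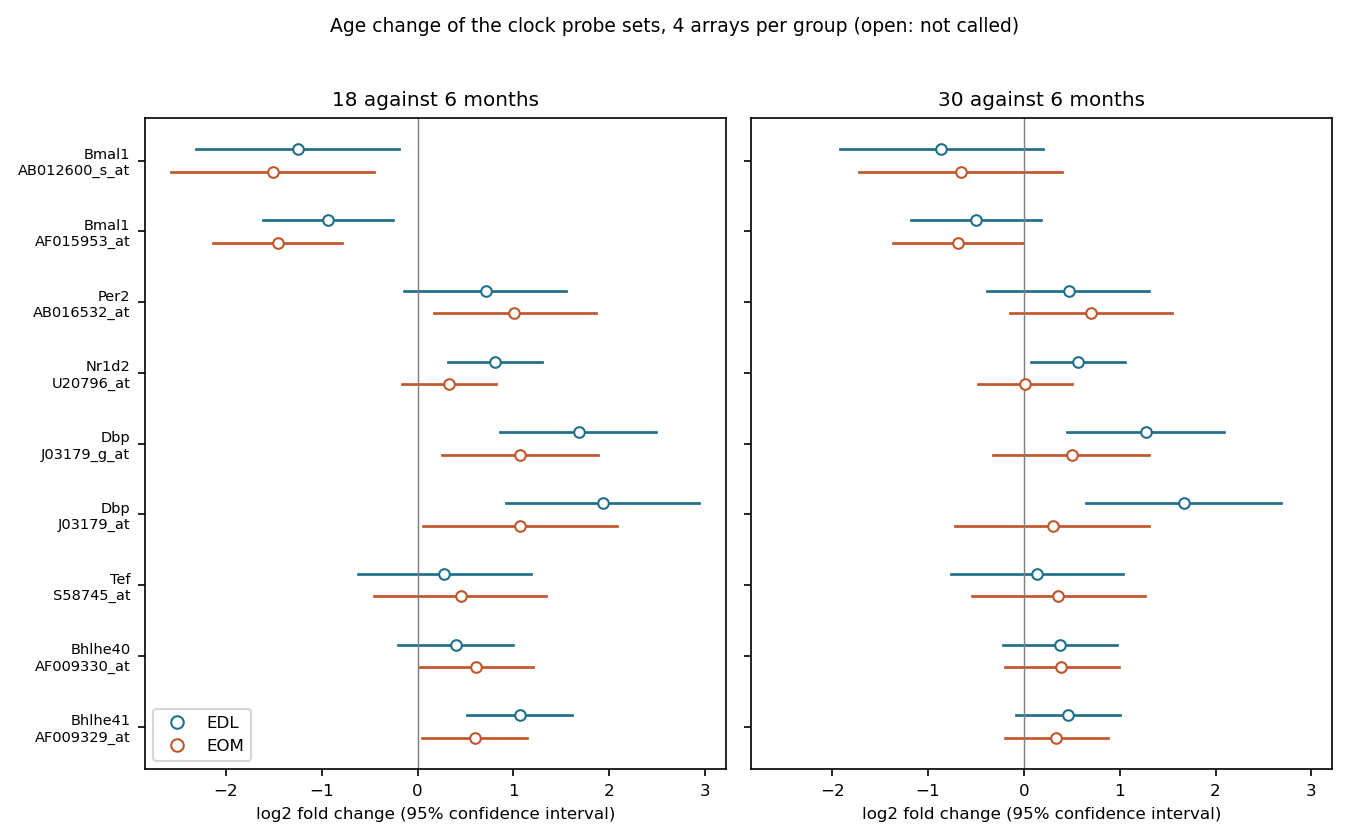
Log2 fold change at 18 against 6 months (left) and 30 against 6 months (right) of the 9 clock probe sets in EDL and EOM, with 95% confidence intervals from the fit of 24 arrays. Both Bmal1 probe sets lie left of 0 and the other 7 right of 0 in all 4 comparisons, Nr1d2 in EOM at 30 months by only 0.01. All points are open because none was called.

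The muscles were also compared in their age changes. The log2 change at 18 months in EOM minus that in EDL was -0.61 ± 0.56 (95% interval -1.77 to 0.55) for Dbp, -0.48 ± 0.34 (-1.18 to 0.22) for Nr1d2, -0.47 ± 0.37 (-1.24 to 0.30) for Bhlhe41 and 0.31 ± 0.58 (-0.89 to 1.5) for Per2. For Bmal1 it was -0.26 ± 0.73 (-1.76 to 1.23). By limma 0 of 7 genes were called at 18 and at 30 months, where 0% and 0.192% of all probe sets were. At an unadjusted p under 0.05 the members' counts were also 0 of 7, beside 4.41% and 4.49%. The intervals were wide, so the data do not show that the muscles changed alike.

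An average over the muscles, chosen after the data had been seen, gave the age change more arrays. At 18 against 6 months Bmal1 on AF015953_at was lower by a log2 difference of -1.20 ± 0.23 (limma adjusted p = 0.0244) and Dbp was higher by 1.37 ± 0.28 (limma adjusted p = 0.0392). Both were called, among 10 probe sets or 0.174% of those tested, and Dbp was the 1 probe set called higher (0.0174%). Of the 7 genes, each represented by its brightest probe set, Dbp was the 1 called. The brighter Bmal1 probe set had -1.38 ± 0.36 (limma adjusted p = 0.159), Bhlhe41 0.83 ± 0.19 (adjusted p = 0.0616), Nr1d2 0.57 ± 0.17 (adjusted p = 0.245), Per2 0.86 ± 0.29 (adjusted p = 0.399), Bhlhe40 0.50 ± 0.20 (adjusted p = 0.549) and Tef 0.36 ± 0.31 (adjusted p = 0.869). At an unadjusted p under 0.05, 6 of 7 genes were past, beside 7.63% of all probe sets. At 30 against 6 months 0 of 7 genes were called, beside 1.20% of all probe sets, and 3 of 7 had an unadjusted p under 0.05, beside 8.33%. At 30 against 18 months 0 of 7 were called, beside 0.644%, and 1 of 7 had an unadjusted p under 0.05, beside 5.89%. These counts too come from a list chosen with earlier results known and are a description. If same-numbered EDL and EOM arrays of an age are treated as related, as they would be if they came from the same animals, both calls at 18 months end (limma adjusted p = 0.0877 for each). Leaving out single arrays ended the call in 6 of 24 cases for Bmal1 and 9 of 24 for Dbp, with adjusted p up to 0.074 and 0.128.

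For Dbp the replicate sets stood farther apart at 30 than at 18 months. In replicates 1 and 2, Dbp at 30 against 6 months was higher by 1.74 ± 0.27 as the mean over muscles (limma adjusted p = 0.00734), and in replicates 3 and 4 the difference was 0.03 ± 0.23 (limma adjusted p = 1). The single arrays show the same: at 30 months replicates 1 and 2 read 1211.9 and 1917.8 in EDL and 813 and 1099.7 in EOM, and replicates 3 and 4 read 585.7 and 624.8, then 432.6 and 301.9. The difference between the sets was 1.71 ± 0.37, with unadjusted p = 0.000241 but limma adjusted p = 0.346, so it was not called (0 of 5741 probe sets were). Per2 differed by 1.21 ± 0.51 and Bhlhe40 by 0.97 ± 0.38 in the same direction, and Bmal1 by -0.65 ± 0.47 on AF015953_at, all with limma adjusted p = 0.999. At 18 against 6 months, as the mean over muscles, each of the 9 probe sets had 1 sign in both sets. Dbp was at 1.87 and 0.87, and Bmal1 at -2.02 and -0.74 on its brighter probe set. For Bmal1 the difference between the sets at 18 months was -1.27 ± 0.74 on its brighter and -0.82 ± 0.47 on its second probe set (limma adjusted p = 1 for each). At 30 months it was -1.0 ± 0.74 and -0.65 ± 0.47. Whether the difference between the sets changed from 18 to 30 months was not tested, for Dbp or for Bmal1. What separates the replicate sets was not tested.

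**Figure D3:**
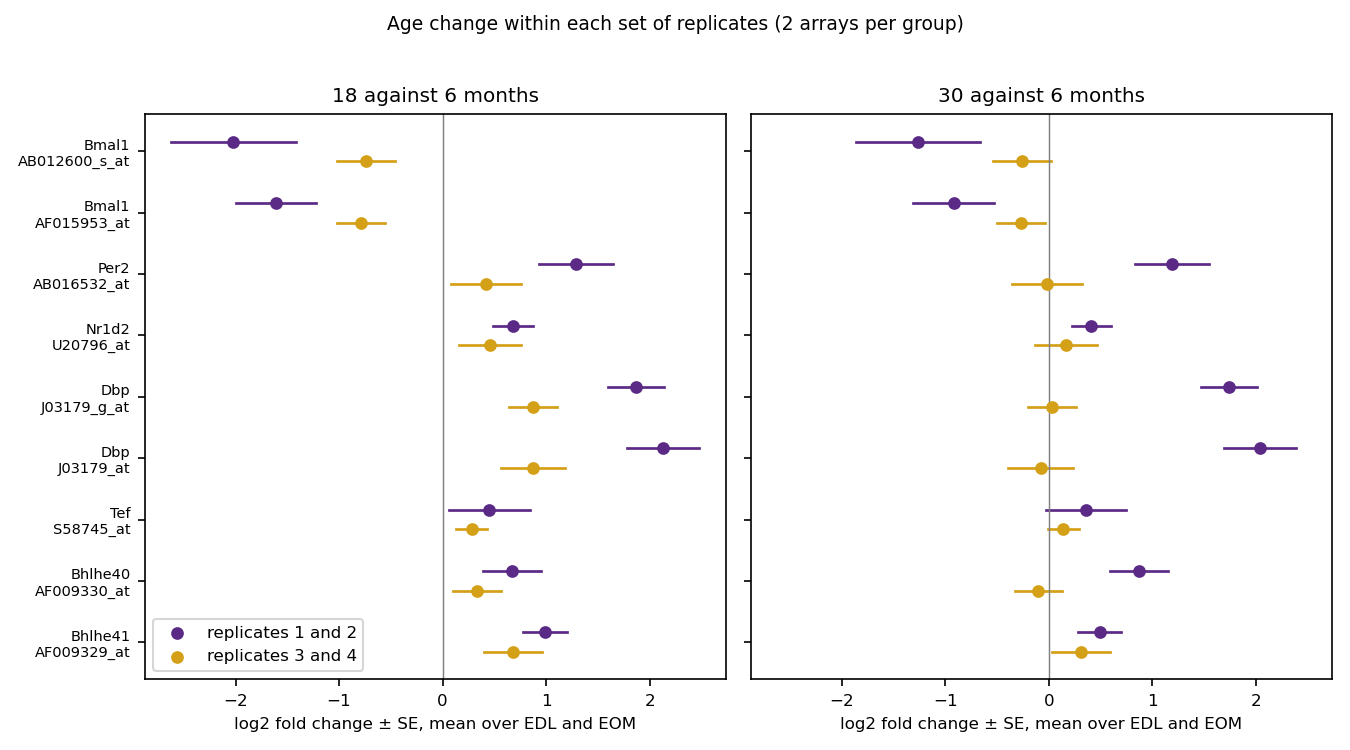
Log2 fold change ± SE at 18 and at 30 against 6 months, as the mean over EDL and EOM, in a fit of replicates 1 and 2 and in one of replicates 3 and 4 (2 arrays per group in each). At 18 months both sets share their sign for all 9 probe sets, and at 30 months Dbp lies at 1.74 in replicates 1 and 2 and at 0.03 in replicates 3 and 4.

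Beyond the groups, arrays of a group that were high in Bmal1 were low in Dbp. On log2 deviations from the group mean over 24 arrays, Bmal1 (AB012600_s_at) and Dbp (J03179_g_at) had r = -0.70 and rho = -0.59, with permutation p = 0.00015 and 0.00243 for values permuted within groups, or 0.00105 and 0.0068 after adjustment over the 14 relations computed. Without the 2 arrays farthest in Bmal1 r was -0.67. It was -0.69 over the 12 EDL arrays and -0.74 over the 12 EOM arrays, and -0.82 once the replicate set was removed too. With the set removed the second Bmal1 probe set had r = -0.38 with Per2 and -0.22 with the dimmer Dbp probe set. Of the 14 relations, counted by r, 5 were past an adjusted permutation p of 0.05 on deviations from the group mean. By the same count 2 were past with the replicate set removed, 1 over the EDL arrays alone and 3 over the EOM arrays alone. Same-numbered EDL and EOM arrays may share animals, in which case these p-values are too small. Per2 had r = -0.50 and rho = -0.63 with Bmal1 (adjusted permutation p = 0.0111 and 0.00476), and Nr1d2 had r = -0.32 and rho = -0.40 (adjusted permutation p = 0.197 and 0.118). On deviations within the replicate sets the r of Nr1d2 was 0.11 over replicates 1 and 2 and -0.99 over replicates 3 and 4, each from 6 pairs of arrays. Tef (r = -0.02), Bhlhe41 (r = -0.16) and Bhlhe40 (r = 0.17) were not past the threshold. With the second Bmal1 probe set Dbp had r = -0.56 and Per2 r = -0.44 (adjusted permutation p = 0.00532 and 0.0328), while the dimmer Dbp probe set had r = -0.38 (adjusted permutation p = 0.0784). By rho the dimmer Dbp probe set was past the threshold, at -0.50 (adjusted permutation p = 0.0261).

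**Figure D4:**
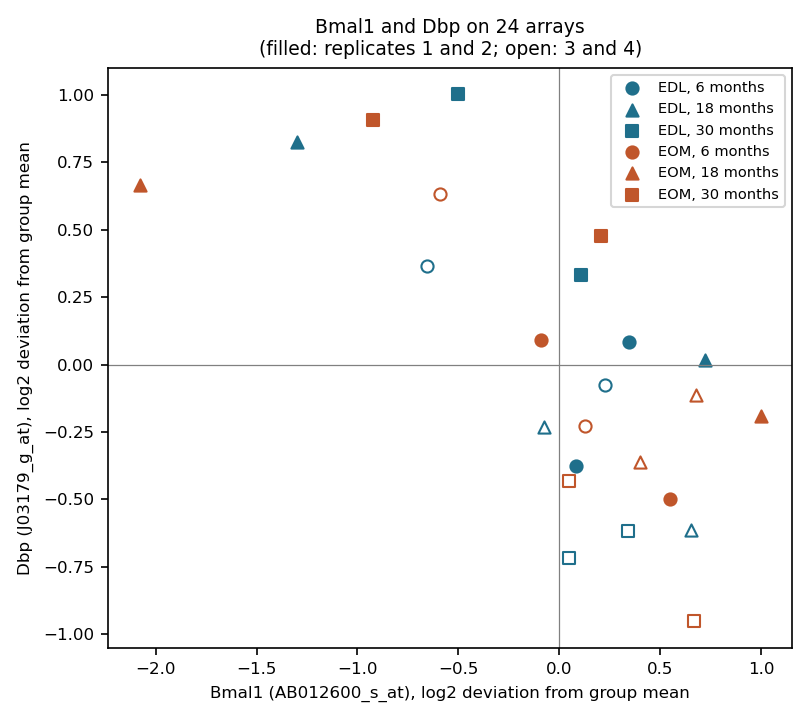
Log2 deviation of Dbp (vertical) against that of Bmal1 (horizontal) from their group means, 1 point per array, 24 arrays, by muscle (colour), age (shape) and replicate set (filled or open). Arrays to the left, low in Bmal1, lie high in Dbp (r = -0.70), in EDL and EOM alike in sign.

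The distance between Dbp and Bmal1 on each array, set to a mean of 0 at 6 months in each muscle, summed both movements. It combines values given above for a pair already seen to move in opposite directions. The distance is therefore a description and no separate support. At 18 months it was 2.92 ± 1.49 (SD, n = 4) in EDL, from 1.66 to 5.05, and 2.58 ± 1.84 in EOM, from 1.38 to 5.32, in log2 units. The 6-month arrays ran from -0.46 to 1.02 in EDL and from -1.04 to 1.22 in EOM, so no 18-month array of either muscle reached back to them. At 30 months it was 2.13 ± 1.13 in EDL, from 1.17 to 3.63, and 1.15 ± 1.45 in EOM, from -0.47 to 2.99, where it overlapped the 6-month range.

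With only the muscle's mean removed, so that age and pool both counted, Dbp was the gene least like Bmal1 of the named genes tested. Its r of -0.81 was below that of each of 3408 named genes outside the members, and so was that of Per2 at -0.67. The lowest among those others were Myl7 (r = -0.63), Gas6, Rab3b, Vom2r53 and Cyp4a3, and the highest were Fkbp3 (r = 0.67), Cxcr1, Cyb5a, Canx and Tmem53. For the remaining members, r with Bmal1 was -0.56 for Nr1d2, -0.50 for Bhlhe41, -0.21 for Bhlhe40 and -0.17 for Tef. Below these lay 12, 28, 642 and 861 of the 3408 genes. For Dbp, 3 of the 3408 genes had a higher r than Nr1d2 (0.69) and 4 had a higher r than Per2 (0.65). The most like Dbp was Rab3b (r = 0.79), followed by Sh2b1, Gps1, Ccndbp1 and Aqr, and the least like were Col1a1 (r = -0.76), Col1a2, Lrrc59, Hspa1l and Adh1c. Bhlhe41 had r = 0.52 with Dbp, Bhlhe40 0.43 and Tef 0.01. All values are over the same 24 arrays and are a description.

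Members differed in how far arrays of a group lay apart. The residual SD on the log2 scale was 0.80 for Bmal1 on AB012600_s_at, above 91.7% of all tested probe sets and the 1 of 9 above 90%, and 0.45 on AF015953_at, above 51.9%. Dbp stood at 0.62 and 0.76 on its brighter and dimmer probe set, above 75.6% and 89.5%, Tef at 0.68 (81.9%) and Per2 at 0.59 (72.8%). Bhlhe40 at 0.42, Bhlhe41 at 0.39 and Nr1d2 at 0.34 lay below the median SD of all probe sets, 0.44. Set against the 500 probe sets nearest in level, 4 of the 9 had an SD above 90% of them: Bmal1 on AB012600_s_at (94.2%), Tef (92.4%) and Dbp on its dimmer and brighter probe set (92.2% and 90.6%). By that measure Bhlhe41 stood at 71.2%, Bhlhe40 at 69.2%, Per2 at 53.6%, Nr1d2 at 52.0% and Bmal1 on AF015953_at at 31.8%. Within EDL and EOM the SD of Per2 was 0.77 and 0.34, that of Bhlhe40 0.47 and 0.37 and that of Nr1d2 0.36 and 0.32. It was larger in EOM for Bmal1 (0.63 and 0.94 on AB012600_s_at, 0.29 and 0.57 on AF015953_at), Tef (0.60 and 0.75) and Bhlhe41 (0.35 and 0.43). Dbp had 0.61 and 0.62 on its brighter probe set and 0.79 and 0.73 on its dimmer one.

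The other question of the design is how EOM differs from EDL. Over the mean of the 3 ages 3 of 7 genes were called, all lower in EOM, while 42.3% of all probe sets were called and 20.0% were called lower. Bhlhe40 was lower by a log2 difference of -0.94 ± 0.17 (limma adjusted p = 6.44e-05), Tef by -0.76 ± 0.25 (limma adjusted p = 0.0165) and Bhlhe41 by -0.50 ± 0.15 (limma adjusted p = 0.0101). Bmal1 was called lower on AF015953_at (-0.56 ± 0.19, limma adjusted p = 0.0197) but not on its brighter probe set (-0.33 ± 0.30, limma adjusted p = 0.383). Nr1d2 had -0.31 ± 0.14 (limma adjusted p = 0.0734), Dbp -0.40 ± 0.23 (0.164) and Per2, the 1 gene with a positive value, 0.43 ± 0.24 (0.15). The median over the 7 genes was -0.40 and that over all probe sets -0.06.

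Bhlhe40 was the 1 member called at each age. Its level in EOM was 269 ± 58.9 at 6 months, 406 ± 65.7 at 18 months and 365 ± 149 at 30 months (SD, n = 4), against 575 ± 260, 712 ± 142 and 710.1 ± 203 in EDL. The log2 difference was -1.01 ± 0.29 at 6 months (limma adjusted p = 0.0154), -0.80 ± 0.29 at 18 months (limma adjusted p = 0.0453) and -1.0 ± 0.29 at 30 months (limma adjusted p = 0.0158). The muscles did not overlap at 18 and 30 months and met in 1 of 16 pairs at 6 months. In 11 of 24 cases leaving out 1 array ended the call at 18 months (adjusted p up to 0.112). The call at 6 months ended without EDL replicate 1 or 4 or EOM replicate 2 of that age (adjusted p up to 0.0776), and the call at 30 months without EDL replicate 1 or EOM replicate 3 of that age (up to 0.0694). Bhlhe41 was called at 18 months alone (-0.77 ± 0.26, limma adjusted p = 0.0351), when its EOM arrays lay wholly below its EDL arrays, and leaving out 1 array ended that call in 6 of 24 cases (adjusted p up to 0.0896). The count of members called was 1 of 7 at 6 months, 2 of 7 at 18 months and 1 of 7 at 30 months, where 17.9%, 23.4% and 19.2% of all probe sets were called and 6.29%, 9.25% and 7.79% were called lower. By gene, EOM lay below EDL without overlap for 0 of 7, 2 of 7 and 1 of 7 at these ages, beside 7.33%, 11.0% and 10.5% of all probe sets.

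Other tissue moved with this comparison. The summed signal of the 6 skeletal fibre markers was 96820 to 166800 in EOM and 125900 to 245900 in EDL over the 3 ages, and 6 of 6 were called lower in EOM, with a median of -0.55. The 5 Schwann cell and nerve markers on the array were all called higher in EOM (summed signal 4627 to 7029 against 841.7 to 1865), as were 4 of 4 smooth muscle markers (3419 to 9493 against 1450 to 3430). Also called higher in EOM were 5 of 7 orbital gland, 2 of 2 red blood cell, 3 of 6 fat cell, 2 of 3 macrophage and 1 of 5 endothelial markers, and 1 of 2 lens and retina markers was called lower. Their part in the members' difference was not tested. Between ages 0 of the 6 fibre markers were called by limma in either muscle, and 0 had an unadjusted p under 0.05. In EDL at 30 months other markers did move. Of 7 orbital gland markers 3 (Klk1, Krt18 and Krt8) were called higher at 30 than at 6 and than at 18 months, with limma adjusted p up to 0.0248, and the list's summed signal ran from 251.9 to 725.1 at 6 months, from 316.6 to 631.7 at 18 months and from 2663 to 7370 at 30 months. At 30 against 18 months the extraocular fibre marker Myh3 and the fat cell marker Cidea were also called higher in EDL, 1 of 4 and 1 of 6 of their lists (limma adjusted p = 0.000726 and 0.0464). Their part in the members' values at 30 months was not tested. The ratio of the 3′ to the 5′ actin control, a sign of RNA quality, was 2.19 ± 1.08 in EDL at 6 months (1.16 to 3.54) and had group means of 1.31 to 1.67 in the 5 other groups, so it moved with the EDL age comparisons. At 6, 18 and 30 months its mean was 2.19, 1.60 and 1.67 in EDL and 1.41, 1.31 and 1.32 in EOM, so it also moved with the comparison of the muscles. In EDL at 6 months the ratio was 2.54 and 3.54 on replicates 1 and 2 and 1.51 and 1.16 on replicates 3 and 4. In EOM at 6 months it was 1.34 and 1.47, then 1.46 and 1.39. Its part in these comparisons, or in the split between replicate sets, was not tested.

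**Figure D5:**
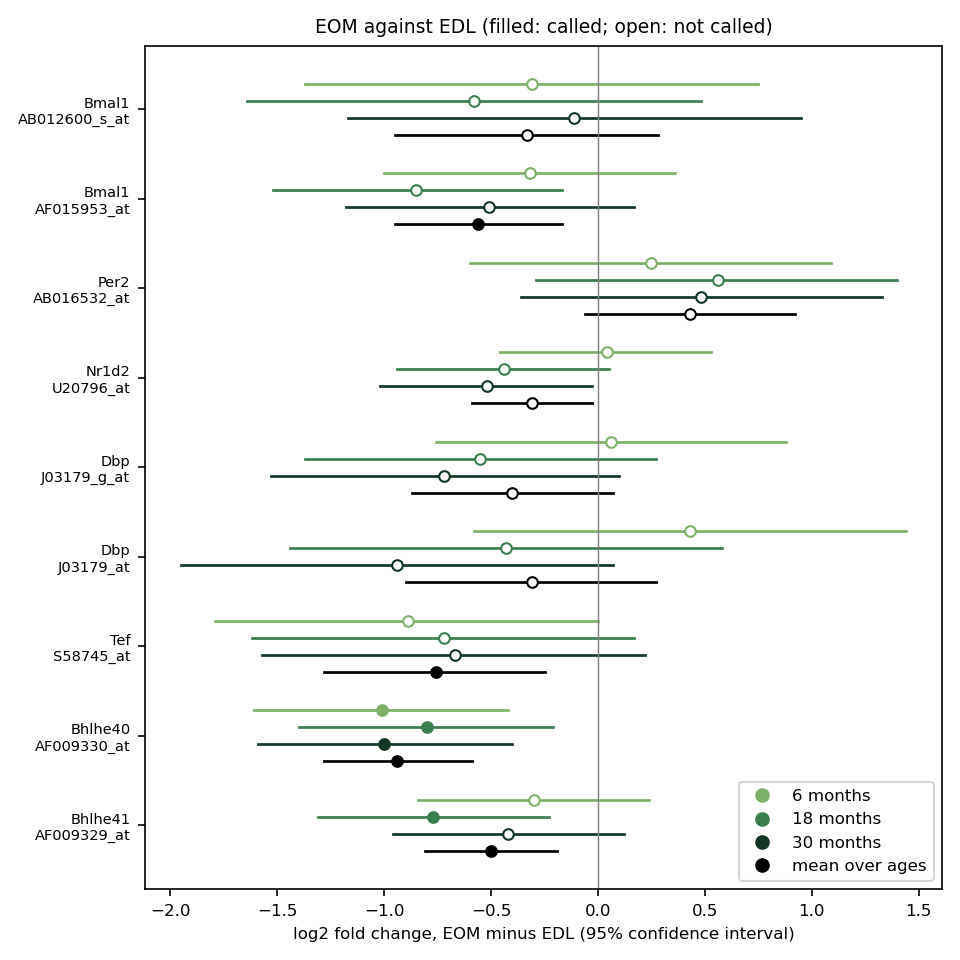
Log2 fold change, EOM minus EDL, of the 9 clock probe sets at each age and as the mean over ages, with 95% confidence intervals from the fit of 24 arrays. Filled points were called: Bhlhe40 in all 4 comparisons, Bhlhe41 at 18 months and over the mean, and Tef and 1 Bmal1 probe set over the mean only.

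In order of level, the 3 EDL groups stood above the 3 EOM groups for Tef (558 to 702 against 340.2 to 405) and Bhlhe40 (575 to 712 against 269 to 406), with gaps of 0.44 and 0.40 in log2 between the lowest EDL and the highest EOM group. Neighbouring groups differed by less than the residual SD in both. Dbp had both older ages of EDL on top, then both older ages of EOM, then 6 months of either muscle (1364, 1085, 905, 662, 433 and 405). Neighbours there differed by 0.06 to 0.57 in log2, under the residual SD of 0.62. Bmal1 on its brighter probe set had the reverse ends, 475 and 385 at 6 months of EDL and EOM and 222 and 167 at 18 months, with 259 and 253 at 30 months between, and neighbours within its residual SD of 0.80. Per2 ran the other way round the muscles, with EOM at 18 and 30 months on top, EDL at 18 and 30 months next and both 6-month groups last, in steps of 0.22 to 0.31 under its SD of 0.59. For 3 probe sets a step between neighbours was above the residual SD. Bhlhe41 had a step of 0.60 in log2 from EDL at 18 months (2296) to EDL at 30 months (1571), against an SD of 0.39. Bmal1 on AF015953_at had a step of 0.77 between EOM at 30 and at 18 months (SD 0.45), and Dbp on J03179_at one of 0.77 between EOM at 18 and at 30 months (SD 0.76). None of these 3 differences was called by limma.

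Other clock genes were read from a list of 28 core clock genes and regulators, of which 12 were on the array and 10 were tested. By limma 0 of 10 were called in the 6 comparisons of ages in 1 muscle, with 1 of 10 at an unadjusted p under 0.05 in each of EDL at 18 against 6, EDL at 30 against 18 and EOM at 18 against 6 months, and 0 of 10 in the others. Of all probe sets 0.0174% to 1.86% were called in the 6 comparisons. The shares at an unadjusted p under 0.05 were 7.66%, 9.34% and 3.97% in the comparisons named, and 2.30% to 10.5% in the others. Nr1d1, which encodes REV-ERB alpha, the close relative of NR1D2, read 1121 ± 353, 1962 ± 481 and 1226 ± 243 in EDL at the 3 ages (SD, n = 4), and its log2 difference at 18 against 6 months was 0.83 (unadjusted p = 0.01035, limma adjusted p = 0.415) in EDL and 0.41 (limma adjusted p = 0.999) in EOM. Hlf, the third gene of the PAR bZIP family with Dbp and Tef, had -0.38 in EDL and 1.07 in EOM at 18 months, neither called (limma adjusted p = 0.971 and 0.999). Against EDL, EOM was called lower for Prkaa2, a catalytic subunit of the energy sensor AMPK (-1.65, limma adjusted p = 0.00101), and Ppp1ca, a phosphatase subunit (-0.25, limma adjusted p = 0.0237), and 0 of 10 were called higher. The 2 of 10 called lower stand beside 20.0% of all probe sets.

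Of 27 known rhythmic outputs, 17 were on the array and 15 were tested. Over the mean of ages 4 of 15 were called higher in EOM, namely Wee1, Alas1, Hk2 and Lpl (0.85 to 1.04), and 4 of 15 lower, namely Pdk4, Tcap, Myod1 and Tfrc (-0.31 to -1.05), beside 22.3% and 20.0% of all probe sets. In EDL at 30 against 6 months Cdkn1a (2.68, limma adjusted p = 0.0219) and Myod1 (1.03, limma adjusted p = 0.0207) rose and Tfrc fell (-1.74, limma adjusted p = 0.00625), 3 of 15 beside 1.86% of all probe sets. At 18 against 6 months, the comparison in which the members stood farthest apart, 0 of 15 were called in either muscle. At an unadjusted p under 0.05, 3 of 15 were past in EDL and 1 of 15 in EOM. Of all probe sets 0.279% and 0.174% were called there, and 7.66% and 3.97% had an unadjusted p under 0.05. Among genes that answer to glucocorticoids or handling, 20 of 34 were tested. At 18 against 6 months 0 of 20 were called in either muscle. In EDL 2 and in EOM 0 had an unadjusted p under 0.05, beside the same shares. At 30 against 6 months in EDL Sgk1, a kinase induced by glucocorticoids, was called higher (0.98, limma adjusted p = 0.0133), 1 of 20 beside the same 1.86%. At 30 against 18 months in EDL 1 of 20 was called higher, beside 1.55% called. At an unadjusted p under 0.05, 5 were higher there and 1 lower, beside 9.34%. Over the mean of ages 4 of 20 were called higher in EOM and 8 lower, beside 22.3% and 20.0% of all probe sets.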

How the data were processed

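The deposited table holds linear intensities made with Affymetrix MAS5 by the authors, per the submitters' processing notes. The labels list 2 dyes although a biotin stain is described, and the table has a single value per feature, so 1 colour was assumed. Gene names are those of the platform annotation, which can be old. The members, gene lists and comparisons were chosen with earlier results of these data known.

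After removal of 59 controls, values under the 25th percentile of an array were raised to it (21.4 to 34.5 units) and log2 was taken. Probe sets were kept if above the 40th percentile on 3 of 4 arrays in any group, which left 5741. No member value lay at the floor, and fold changes of dim genes are understated. The 6 group means were fitted over 24 arrays with limma 3.58.1 in R 4.3.3 (eBayes with trend, 18 residual degrees of freedom). P-values are two-sided and Benjamini-Hochberg adjusted over 5741 probe sets, and a call is an adjusted p under 0.05. As whole arrays EDL scattered more than EOM, and both share 1 spread in the fit. Bmal1, on both probe sets, Tef and Bhlhe41 scattered more in EOM. For these the shared SE can be too small in EOM. The brightest probe set stands for a gene. Pools are the replicates, and 4 arrays per group limit the precision. The fit was tested on simulated data with independent arrays. These data held no split between replicate sets, so the test does not cover that feature of the arrays.

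Named beside the members were genes called in a list, though not all of them, and the 5 genes most and 5 least like Bmal1 and Dbp. Nr1d1 and Hlf were named, as relatives of members, after their values were seen. Alternatives were other scaling, floors, filters, variance models, samples, the replicate number as a block, and each array left out. Correlations between groups of same-numbered arrays exceeded 0.1 for every number in 8 of 15 pairs of groups, so the numbers were not taken as a pairing. Time of day was not tested.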

Additional observations from a re-analysis of the deposited data

Results flagged for a closer look

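In 54 sets of 4 arrays (9 probe sets in 6 groups) the highest and lowest log2 values were set against Dixon's critical value, and 4 were past it. Chance flags about 1 in 20 such sets. Dbp on its dimmer probe set (J03179_at) read 811.9 on EDL replicate 1 of 18 months, where the 3 others read 332.3 to 376.2. Tef read 90.3 on EOM replicate 2 of 6 months, where the others read 394.3 to 480.2. Bhlhe40 read 1013 on EDL replicate 1 of 30 months (others 586 to 637.5) and 503.4 on EOM replicate 1 of 18 months (others 367.5 to 383.5).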

How the results depend on the processing

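Counts are of members called, of 7 genes. Between the muscles, over the mean of the ages, the count of 3 was 2 to 4 over the other settings and 3 to 4 with 1 array left out. Bhlhe40 was called there in all 11 other settings (-1.07 to -0.80), while Tef was not with replicates 1 and 2 alone (limma adjusted p = 0.0864) and Bhlhe41 not with replicates 3 and 4 alone (limma adjusted p = 0.177). At 6 months the count of 1 became 0 with either replicate set alone, with only the groups compared and by the rule after the submitters' own. At 18 months the count of 2 became 1 with no filter and with no intensity trend, and 0 with replicates 1 and 2 alone and by that rule. At 30 months the count of 1 became 0 with either set alone and by that rule, and 2 with same-numbered EDL and EOM arrays as a random block. Leaving out 1 array gave 0 to 1, 0 to 2 and 0 to 1 at these ages.

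The labels' replicate number as a block (the replicate block) gave 2, 4 and 2 at 6, 18 and 30 months, 3 in EDL at 18 against 6 months and 3 for that change over both muscles. Of 24 arrays, 22 were closest to their own number, a hint from the data. The replicate set as a term gave 2 at 6 months, 2 in EDL at 18 against 6 months and 2 over both muscles. For EDL at 18 against 6 months, where the count was 0, replicates 1 and 2 alone gave 1, the rule after the submitters' own 2 and leave-one-out 0 to 1. For EDL at 30 against 6 months replicates 1 and 2 alone and that rule each gave 1, and for EOM at 18 against 6 months that rule gave 2. For 18 against 6 months over both muscles the count of 1 became 0 after quantile normalisation, with no intensity trend, with replicates 3 and 4 alone and with the random block, and was 0 to 2 with 1 array left out. At 30 against 6 months over both muscles replicates 1 and 2 alone gave 1, and Dbp on J03179_at turned to -0.08 with replicates 3 and 4 alone.

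Of 14 relations of Bmal1, 5 passed by r. By r, 10 did with the muscle mean removed, 1 over EDL arrays, 3 over EOM arrays and 2 within replicate sets. The count of 1 probe set above the 90th percentile of spread became 2 after quantile normalisation, with no filter and with the stricter filter, and 0 with the lower floor. Among single probe sets 1539 of the alternative values kept direction and side of the threshold, 44 passed it, 67 lost it and 1 reversed. The causes were not tested. Bmal1 on AF015953_at in EOM at 18 against 6 months was called in 4 of 12 other settings, 2 of them other scalings (lowest limma adjusted p = 0.0352, highest 0.999). Dim signal limits Per2 and that Bmal1 probe set, with 11 and 9 of 24 values not above their array's median.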
